A study of Sus scrofa with 120 samples.

Results

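Krüppel-like factors (KLFs) are transcription factors that bind GC-rich and CACCC-type promoter elements through zinc fingers at their C terminus. The 8 members described here are KLF2, KLF4, KLF5, KLF6, KLF9, KLF10, KLF11 and KLF15, chosen by gene symbol out of 31907 gene identifiers in the count table. All 8 were found, and all 8 passed the filter on low counts in every model. They were followed through RNA sequencing of pig (Sus scrofa) primary chondrocytes, the cells of cartilage, cast in 2% agarose, in 120 libraries that form 30 groups of 4.

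The TRPV4 experiment held 48 libraries. Free-swelling constructs received DMSO vehicle, GSK101 (1 nM), an agonist of the calcium channel TRPV4, GSK205 (10 µM), an antagonist of it, or the inflammatory cytokine IL-1 (1 ng/mL). Other constructs were loaded cyclically for 3 h (10% deformation, 1 Hz), with or without GSK205. The PIEZO1 experiment held 72 libraries of cells left non-transfected (NT) or given a non-targeting siRNA (siNTC) or an siRNA against the mechanosensitive channel PIEZO1 (siPIEZO1). Each of those received DMSO vehicle, a single compression to 80% deformation, or the PIEZO1 agonist Yoda1 (5 µM). Constructs of both experiments were harvested at 3 h or 9 h after the onset of stimulation. The design text gives the doses of GSK205 and Yoda1 in µM, whereas sample labels write mM. Nothing in the sources used here ties the 4 libraries of a group to different animals, and p-values therefore reflect only the spread between libraries, which may be technical.

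Several members belong to well-known pathways. KLF2 and KLF4 are induced by laminar shear stress in endothelium through the MEK5-ERK5-MEF2 cascade, and both restrain inflammatory gene expression there. KLF5 and KLF6 respond to growth factors and injury, and mouse KLF5 activates the protease gene MMP9 in growth plate cartilage. KLF10 and KLF11, first named as TGF-beta-inducible early genes, repress transcription by recruiting SIN3A. KLF9 and KLF15 are induced by glucocorticoids, and KLF15 controls amino acid and glucose metabolism in liver and muscle.

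On Sscrofa11.1, RefSeq places KLF4 and KLF9 on chromosome 1, at 248604817 to 248609574 and 223723613 to 223747661. KLF2 lies on chromosome 2 (61270733 to 61273037), KLF11 on chromosome 3 (126419011 to 126429890) and KLF10 on chromosome 4 (34430132 to 34435990). KLF15 lies on chromosome 7 (53877813 to 53890558), KLF6 on chromosome 10 (66488445 to 66497830) and KLF5 on chromosome 11 (45370009 to 45386673). In the count table they carry the Ensembl identifiers KLF2 ENSSSCG00000038911, KLF4 ENSSSCG00000005437, KLF5 ENSSSCG00000035101, KLF6 ENSSSCG00000035212, KLF9 ENSSSCG00000021646, KLF10 ENSSSCG00000027480, KLF11 ENSSSCG00000038643 and KLF15 ENSSSCG00000036742. All are protein-coding, and none overlaps another RefSeq gene.

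Total counts were 20651530 to 80223797 per TRPV4 library and 36807992 to 66240251 per PIEZO1 library. Raw counts of a member ran from 0 (KLF15, PIEZO1 experiment) to 223523 (KLF4). The chondrocyte markers ACAN, COL2A1, COL9A1, COL11A1, SOX9, HAPLN1 and COMP were present in every library and summed to 66448 to 124779 CPM (normalised read counts scaled to library size) in the TRPV4 experiment and 15048 to 43511 CPM in the PIEZO1 experiment. The largest of these by median was COL2A1 (48397 CPM) in the TRPV4 experiment and COMP (15142 CPM) in the PIEZO1 experiment. Fibroblast markers (4 of 4 in the table) summed to 352 to 1070.4 CPM and 132 to 1840.4 CPM. Endothelial markers (4 of 4) summed to 2.54 to 5.78 CPM and 1.92 to 9.08 CPM, leukocyte markers (5 of 5) to 1.71 to 7.14 CPM and 0.425 to 4.66 CPM, and smooth muscle markers (3 of 3) to 0.362 to 4.20 CPM and 0.0627 to 2.47 CPM. Among these, LYZ was at 0 in all 120 libraries, CDH5 in 8 of 48 TRPV4 and 19 of 72 PIEZO1 libraries, and PTPRC in 19 of 48 and 22 of 72. The libraries of both experiments were made with different kits, so levels were never tested between experiments, and a member's CPM is compared only between groups and not with that of another member.

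Of 160 member tests in the TRPV4 experiment (8 members in 20 comparisons), 103 were called at an adjusted p under 0.05. Of 192 in the PIEZO1 experiment (24 comparisons), 18 were called. Over both, 74 calls were higher and 47 lower. GSK101, IL-1, loading and GSK205 were each compared with the same DMSO libraries at a given time, so those comparisons are not independent of each other.

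**Figure D1:**
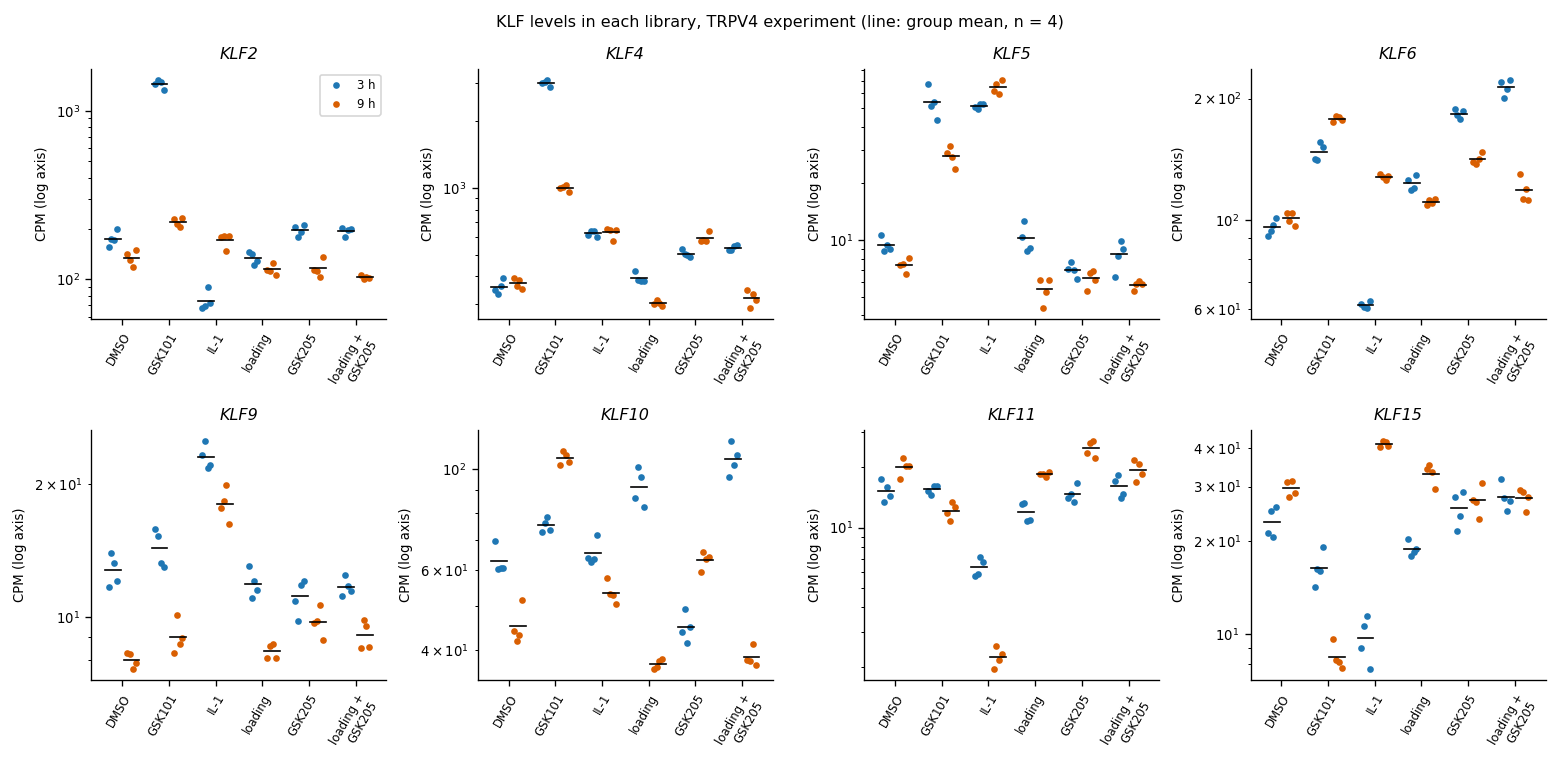
Each panel plots 1 member in the TRPV4 experiment, with CPM on a log axis against treatment. Points are libraries at 3 h (blue) and 9 h (orange), and black lines are means of 4 libraries. KLF2 and KLF4 are highest under GSK101 at 3 h, KLF5 under IL-1 at 9 h, and KLF11 is lowest under IL-1 at 9 h.

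Under the TRPV4 agonist GSK101, 6 of 8 members were called at 3 h, where 40.0% of 16562 genes tested were called (22.0% higher and 18.0% lower). At 9 h 7 of 8 were called, against 62.3% of 16540 genes (29.3% higher and 33.0% lower). At both times 5 were higher, namely KLF2, KLF4, KLF5, KLF6 and KLF10. The median log2 fold change of the 8 was 0.46 at 3 h and 0.74 at 9 h, beside 0.0094 and -0.074 over all genes tested. The members' counts are to be read against these shares. Since the members were chosen with earlier results of these data known, a count above its share is no test of an excess.

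KLF2, a shear-responsive factor of endothelium, measured 154, 174, 171 and 198 CPM in the 4 DMSO libraries at 3 h. In the 4 GSK101 libraries it measured 1434, 1518, 1489.9 and 1331 CPM. The groups were far apart, with a log2 fold change of 3.07 ± 0.085 (SE, n = 4 against 4; edgeR's quasi-likelihood test, adjusted p = 2.79e-23), or 8.39-fold. By 9 h the DMSO libraries held 140.5, 129, 119 and 148 CPM and the GSK101 libraries 229, 212, 205 and 229.7 CPM. These still did not overlap, but the log2 fold change was 0.68 ± 0.071 (adjusted p = 6.13e-10), smaller than at 3 h by 2.34 ± 0.11 in the test of the difference between the times (log2, adjusted p = 2.45e-23).

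KLF4, known as a reprogramming factor and as the partner of KLF2 in endothelium, measured 344, 330.2, 360.5 and 393 CPM under DMSO and 2989, 3009, 3075 and 2868 CPM under GSK101 at 3 h. It rose 8.48-fold (log2 3.08 ± 0.056, adjusted p = 9.59e-28). The 9 h libraries held 391, 361, 383 and 348 CPM under DMSO and 996, 1013, 1029 and 963 CPM under GSK101. KLF4 was then 2.65-fold higher (log2 1.41 ± 0.053, adjusted p = 5.72e-21), and as for KLF2 the effect of GSK101 was smaller at 9 h (difference -1.63 ± 0.074, adjusted p = 1.79e-24).

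The third large response was that of KLF5. It measured 10.6, 8.81, 9.39 and 8.97 CPM under DMSO and 67.3, 51.2, 53.8 and 43.4 CPM under GSK101 at 3 h, a rise of 5.80-fold (log2 2.54 ± 0.12, adjusted p = 5.30e-17). At 9 h it measured 7.38, 7.50, 6.64 and 8.08 CPM and 28.8, 31.4, 27.7 and 23.9 CPM (log2 1.89 ± 0.098, adjusted p = 2.27e-17). Its lowest GSK101 library lay above its highest DMSO library at both times.

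KLF10, the TGF-beta-inducible repressor, moved the other way in time. Under GSK101 it measured 72.8, 76.0, 78.4 and 73.4 CPM at 3 h and 102, 110.0, 108 and 104 CPM at 9 h, while DMSO libraries went from 62.7 ± 4.45 CPM (mean ± SD, n = 4) to 45.1 ± 4.31 CPM. Its log2 fold change grew from 0.28 ± 0.068 (adjusted p = 0.0012) to 1.21 ± 0.055 (adjusted p = 9.03e-19), a difference of 0.97 ± 0.088 (adjusted p = 2.42e-13). KLF6 was higher at both times, by 0.64 ± 0.049 and 0.79 ± 0.043 on the log2 scale (adjusted p = 4.26e-12 and 5.74e-17).

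KLF15, a metabolic regulator, and KLF11, a relative of KLF10, were lower under GSK101. KLF15 measured 31.0, 27.8, 31.2 and 28.7 CPM under DMSO and 9.61, 8.20, 8.12 and 7.76 CPM under GSK101 at 9 h (log2 -1.85 ± 0.084, adjusted p = 6.12e-19), after -0.48 ± 0.11 at 3 h (adjusted p = 7.46e-04). KLF11 fell at 9 h (log2 -0.75 ± 0.092, adjusted p = 1.47e-08), from 20.0 ± 1.94 to 12.2 ± 1.15 CPM, and was not called at 3 h (0.043 ± 0.099, adjusted p = 0.7653). KLF9 was called at neither time (0.19 ± 0.087, adjusted p = 0.0869 at 3 h and 0.15 ± 0.089, adjusted p = 0.1567 at 9 h), although it was at 3 h without GSK101 replicate 4 (adjusted p = 0.0466).

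The 4 GSK101 libraries at 3 h were deeper than the DMSO libraries (62677053 to 80223797 against 20651530 to 29904509 counts) and held less small RNA (2.78 to 4.34% against 6.46 to 13.2% of counts). In a fit of protein-coding genes alone, the log2 fold changes at 3 h were 3.04 ± 0.084 for KLF2, 3.05 ± 0.055 for KLF4 and 2.51 ± 0.12 for KLF5. The part of depth and small RNA in these results was not otherwise tested. Endothelial markers summed to 3.20 to 3.78 CPM under DMSO and 3.45 to 5.00 CPM under GSK101 at 3 h. At 9 h they summed to 2.91 to 4.72 CPM and 4.93 to 5.78 CPM. Fibroblast markers then summed to 373 to 406 CPM and 452 to 467 CPM. Chondrocyte markers summed to 88287 to 106272 CPM under DMSO and 113513 to 124779 CPM under GSK101 at 3 h. At 9 h their order was turned, with 78876 to 82968 CPM and 69057 to 71370 CPM. Leukocyte markers summed to 5.11 to 7.14 CPM under DMSO and 3.81 to 4.21 CPM under GSK101 at 3 h. The part of these markers was not tested. In such bulk libraries fewer cells of a type and less RNA per cell cannot be told apart.

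**Figure D2:**
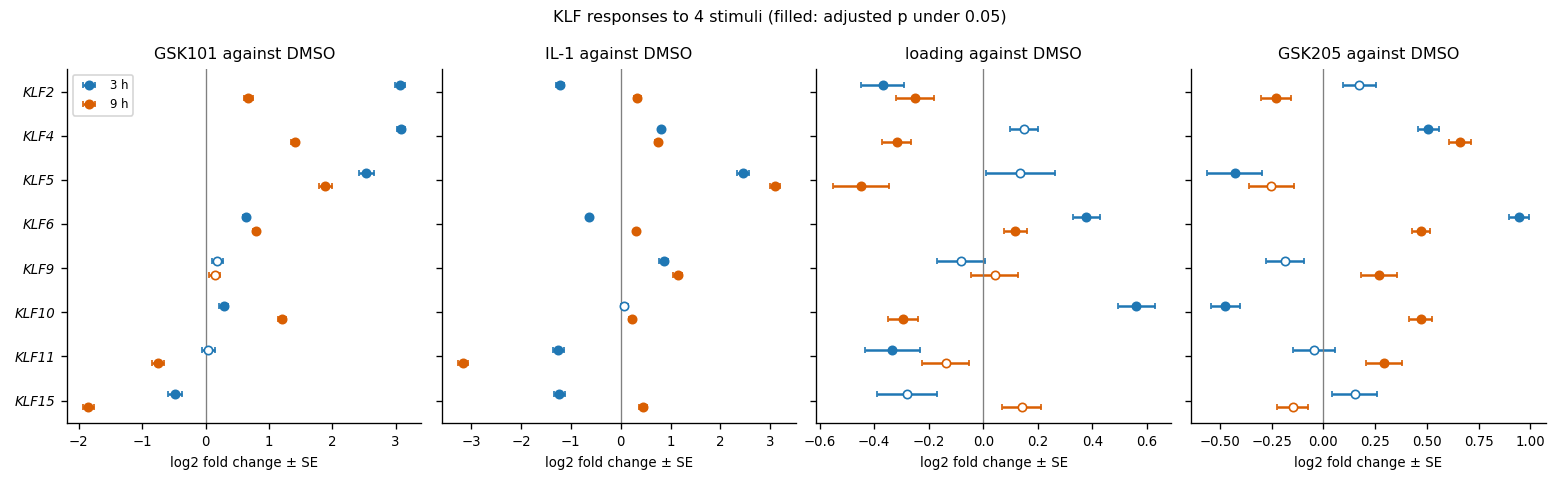
Log2 fold changes against DMSO (x axis, ± SE) of the 8 members (y axis) under GSK101, IL-1, loading and GSK205, at 3 h (blue) and 9 h (orange), from 4 against 4 libraries. Filled points have an adjusted p under 0.05. The changes under loading and GSK205 all lie within 1 log2 unit of 0, whereas KLF2, KLF4, KLF5 and KLF11 pass 3 log2 units under GSK101 or IL-1. The x axes differ between panels.

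IL-1, a cytokine that drives cartilage breakdown, split the family. At 3 h 7 of 8 members were called (background 32.2%, with 18.5% higher and 13.7% lower), 3 higher (KLF4, KLF5 and KLF9) and 4 lower (KLF2, KLF6, KLF11 and KLF15). At 9 h all 8 were called (background 65.1%, with 30.6% higher and 34.5% lower), 7 higher and KLF11 lower. The members' median was -0.28 at 3 h and 0.39 at 9 h (log2), beside 0.0061 and -0.067 over all genes. The summed fibroblast markers moved with IL-1 at 9 h, to 951 to 1070.4 CPM against 373 to 406 CPM under DMSO. Smooth muscle markers summed to 3.13 to 4.20 CPM against 0.826 to 1.47 CPM. The sums under IL-1 rest mostly on COL3A1 and MYH11, which reached 974.7 and 4.04 CPM. In no TRPV4 library did COL1A1, DPT and PDGFRA exceed 20.0, 0.287 and 232 CPM, or DES and CNN1 0.794 and 0.525 CPM. The sums thus need not speak for each marker, and the part of these markers in the 9 h results was not tested.

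KLF5 was the member raised most by IL-1. It measured 50.7, 49.7, 52.5 and 52.6 CPM at 3 h and 61.4, 67.5, 59.5 and 70.5 CPM at 9 h, above every DMSO library. The log2 fold changes were 2.46 ± 0.12 and 3.10 ± 0.097 (adjusted p = 7.11e-17 and 1.66e-23). Whereas the GSK101 response of KLF5 shrank between the times, the IL-1 response grew (difference 0.68 ± 0.16, adjusted p = 5.01e-04). KLF4 rose at both times, by 0.82 ± 0.052 and 0.74 ± 0.053 (adjusted p = 4.61e-14 and 5.23e-14), with 611, 639.8, 642 and 601 CPM at 3 h.

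KLF11 gave the largest fall of any member in any comparison. DMSO libraries held 17.5, 22.1, 20.3 and 20.2 CPM at 9 h, and IL-1 libraries 1.97, 2.57, 2.17 and 2.34 CPM. The log2 fold change was -3.16 ± 0.11 (adjusted p = 1.16e-22), after -1.25 ± 0.11 at 3 h (adjusted p = 4.01e-11). KLF10, its closest relative among the members, was not called at 3 h (0.072 ± 0.069, adjusted p = 0.4673) and was slightly higher at 9 h (0.22 ± 0.055, adjusted p = 8.97e-04), where its libraries overlapped those under DMSO.

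KLF9, a glucocorticoid-responsive factor, measured 11.7, 14.0, 13.2 and 12.1 CPM under DMSO and 23.3, 25.0, 21.8 and 22.0 CPM under IL-1 at 3 h. It rose by 0.87 ± 0.087 and, at 9 h, 1.14 ± 0.084 on the log2 scale (adjusted p = 1.65e-09 and 1.57e-13), which made IL-1 the stimulus with its highest levels. The increase of that effect with time (0.31 ± 0.12, adjusted p = 0.0269) was lost without DMSO 3 h replicate 2 or 3, IL-1 3 h replicate 3 or 4, DMSO 9 h replicate 3 or IL-1 9 h replicate 3 (adjusted p = 0.0590 to 0.0921).

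KLF2, KLF6 and KLF15 were lower under IL-1 at 3 h and higher at 9 h. KLF2 measured 67.9, 69.1, 90.3 and 71.8 CPM under IL-1 at 3 h, below every DMSO library (log2 -1.21 ± 0.081, adjusted p = 1.20e-13), and 178, 181, 148 and 181 CPM at 9 h (0.33 ± 0.071, adjusted p = 1.26e-04). The 9 h libraries overlapped, since IL-1 replicate 3 lay among the DMSO libraries. KLF15 went from 9.67 ± 1.66 CPM at 3 h (-1.23 ± 0.12, adjusted p = 3.18e-10) to 41.2 ± 0.903 CPM at 9 h (0.45 ± 0.073, adjusted p = 2.36e-06), its highest group. KLF6 went from -0.63 ± 0.05 to 0.32 ± 0.042 (adjusted p = 6.46e-12 and 8.25e-08). The difference between the times was called for each of these members, at 1.58 ± 0.11 for KLF2, 1.71 ± 0.14 for KLF15 and 0.98 ± 0.062 for KLF6 (adjusted p = 8.17e-17, 4.14e-15 and 5.21e-19). In all, 6 of 8 members differed in their IL-1 effect between the times (background 38.8%) and 7 of 8 in their GSK101 effect (background 45.8%).

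Set directly against each other, GSK101 and IL-1 libraries differed in 7 of 8 members at 3 h (background 41.5%) and in 8 of 8 at 9 h (background 53.8%). KLF2 showed the widest gap, at 19.4-fold higher under GSK101 at 3 h (log2 4.28 ± 0.09, adjusted p = 1.28e-26). KLF5 was not called apart at 3 h (0.078 ± 0.11, adjusted p = 0.6056, interval of 2 SE either side -0.14 to 0.29) and was lower under GSK101 at 9 h (-1.21 ± 0.088, adjusted p = 1.36e-13). At 9 h KLF11 was 5.31-fold higher (adjusted p = 7.72e-19) and KLF15 lower (log2 -2.29 ± 0.083, adjusted p = 1.08e-21) under GSK101.

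Under cyclic loading at 10% deformation no member changed by more than 0.56 on the log2 scale at either time. At 3 h 4 of 8 were called (background 10.2%, with 7.86% higher and 2.30% lower), and at 9 h, when loading had ended, 5 of 8 (background 23.7%, with 12.5% higher and 11.2% lower). The median over the members was 0.026 and -0.19, beside 0.0066 and 0.005 over all genes.

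KLF10 rose most with loading. It measured 69.3, 60.1, 60.7 and 60.5 CPM under DMSO and 86.4, 101.4, 96.0 and 82.5 CPM in loaded constructs at 3 h (log2 0.56 ± 0.068, adjusted p = 9.77e-07). At 9 h the order was turned, with 44.0, 41.8, 43.1 and 51.4 CPM under DMSO and 36.3, 36.6, 37.8 and 38.2 CPM after loading (-0.29 ± 0.056, adjusted p = 1.99e-04). Neither pair of groups overlapped, and the difference between the times was -0.83 ± 0.089 (adjusted p = 2.03e-09).

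KLF6 rose at 3 h as well (0.38 ± 0.049, adjusted p = 2.74e-06), from 95.8 ± 4.36 to 123 ± 4.95 CPM. Its smaller rise at 9 h (0.12 ± 0.042, adjusted p = 0.0412) was lost without DMSO replicate 2 or 4 or loading replicate 1, 2, 3 or 4 (adjusted p = 0.0569 to 0.1406), and also with no filter (adjusted p = 0.0901), with the replicate block (0.0520) and with protein-coding genes alone (0.1036). KLF2 fell at 3 h, from 174 ± 18.0 to 134 ± 10.9 CPM (-0.37 ± 0.079, adjusted p = 0.0022). The fall of KLF2 at 9 h (-0.25 ± 0.071, adjusted p = 0.0092) was lost without DMSO replicate 4 (adjusted p = 0.0533). The direction of KLF2 was thus opposite under loading and under GSK101 at 3 h.

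KLF11 fell slightly at 3 h (-0.33 ± 0.10, adjusted p = 0.0301), a call lost without DMSO replicate 1 or 3 or loading replicate 3 or 4 (adjusted p = 0.0780 to 0.1223). KLF4 was not called at 3 h (0.15 ± 0.052, adjusted p = 0.0656). It was called without DMSO replicate 4 (adjusted p = 0.0150) and by DESeq2 (adjusted p = 0.0440). KLF15 was called at 3 h only with the groups of the contrast alone (-0.31 ± 0.090, adjusted p = 0.0473). At 9 h KLF4 fell, from 371 ± 19.7 to 301 ± 8.76 CPM (-0.32 ± 0.053, adjusted p = 4.11e-05), and so did KLF5 (-0.45 ± 0.10, adjusted p = 0.0017). In the test of the loading effect between times 5 of 8 members were called (background 10.1%). Besides KLF10 these were KLF4 (-0.44 ± 0.074), KLF6 (-0.23 ± 0.061), KLF5 (-0.56 ± 0.17) and KLF15 (0.45 ± 0.13). The call for KLF5 was lost without DMSO 3 h replicate 2 or 4, loading 3 h replicate 1 or 2, DMSO 9 h replicate 2 or 4 or loading 9 h replicate 2 (adjusted p = 0.0540 to 0.1002), and that for KLF15 without DMSO 3 h replicate 2 or 4, loading 3 h replicate 2, DMSO 9 h replicate 2 or loading 9 h replicate 1 or 2 (adjusted p = 0.0503 to 0.0782). The call for KLF6 was lost with no filter on low counts (adjusted p = 0.0810).

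The TRPV4 antagonist GSK205 changed members in unloaded constructs. With GSK205 alone, 4 of 8 were called at 3 h (background 27.1%, with 14.6% higher and 12.5% lower) and 6 of 8 at 9 h (background 21.2%, with 12.1% higher and 9.15% lower). KLF6 measured 91.1, 93.8, 97.0 and 101.2 CPM under DMSO and 188, 182, 178 and 186 CPM under GSK205 at 3 h, a rise of 1.93-fold (log2 0.95 ± 0.049, adjusted p = 1.55e-14) beside 0.64 ± 0.049 under GSK101. KLF4 rose at 3 h (0.51 ± 0.052, adjusted p = 2.21e-08) and 9 h (0.66 ± 0.053, adjusted p = 8.40e-11). Agonist and antagonist thus both raised KLF4 and KLF6 above DMSO. The difference between the GSK101 and GSK205 effects was not tested.

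KLF10 fell under GSK205 at 3 h, to 43.9, 49.3, 41.3 and 44.9 CPM (-0.47 ± 0.07, adjusted p = 6.60e-06), and was higher at 9 h (0.47 ± 0.056, adjusted p = 1.68e-07). Smaller changes depended on single libraries. KLF5 was lower at 3 h (-0.43 ± 0.13, adjusted p = 0.0161), lost without GSK205 replicate 4 or DMSO replicate 1 (adjusted p = 0.0553 to 0.0561). At 9 h KLF2 was lower (-0.23 ± 0.071, adjusted p = 0.0204), lost without GSK205 replicate 1, 2 or 3 or DMSO replicate 1 or 4 (adjusted p = 0.0529 to 0.0963). KLF9 was higher (0.27 ± 0.088, adjusted p = 0.0269), lost without GSK205 replicate 3 or DMSO replicate 3 or 4 (adjusted p = 0.0617 to 0.1044), with no filter (adjusted p = 0.0882) and with the groups of the contrast alone (0.0724). KLF11 was higher (0.29 ± 0.086, adjusted p = 0.0143), lost without GSK205 replicate 3 or DMSO replicate 1 (adjusted p = 0.0619 to 0.0707). KLF15 was not called (-0.15 ± 0.074, adjusted p = 0.1634), but was without GSK205 replicate 4 (adjusted p = 0.0350).

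**Figure D3:**
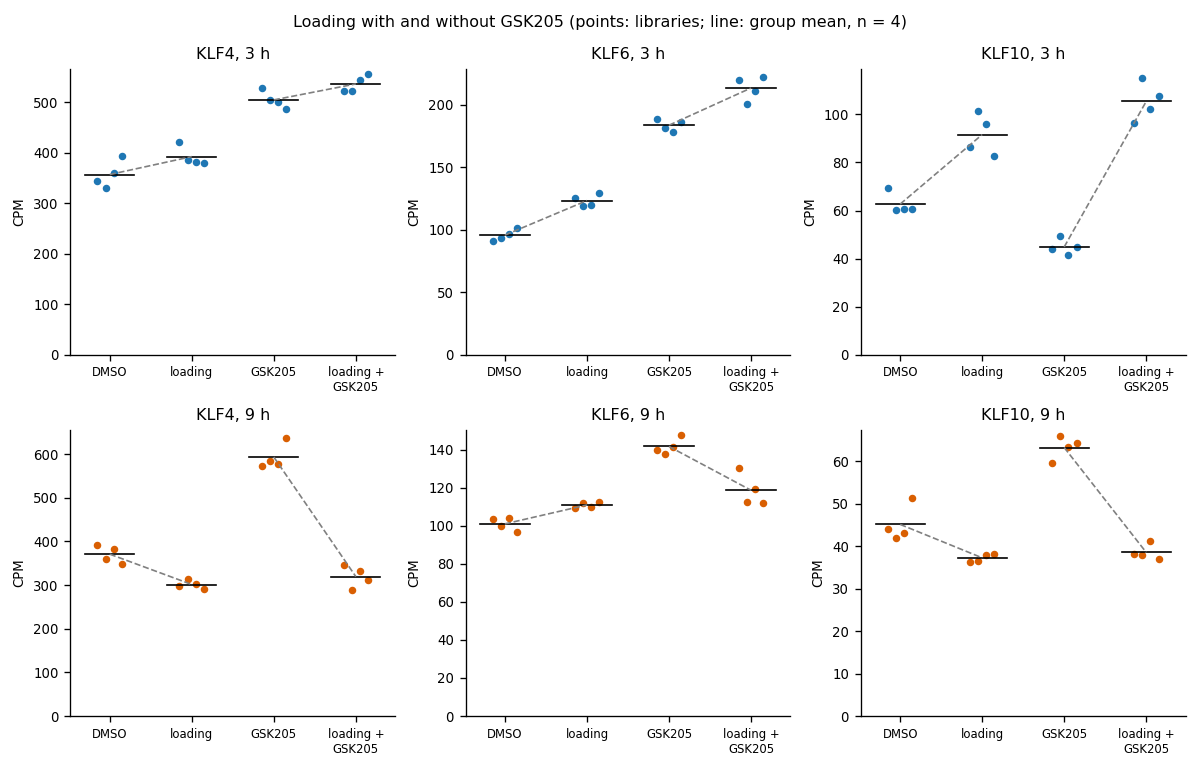
CPM of KLF4, KLF6 and KLF10 in DMSO, loading, GSK205 and loading with GSK205 groups at 3 h (top, blue) and 9 h (bottom, orange). Points are libraries, black lines means of 4 libraries, and dashed lines join free-swelling and loaded groups. KLF10 rises more steeply with loading under GSK205 at 3 h, and KLF4, KLF6 and KLF10 fall from their GSK205 level with loading at 9 h.

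Whether GSK205 altered the response to loading was tested as an interaction, that is, the loading effect with GSK205 less that without it. At 3 h 1 of 8 members was called (background 2.25%), and at 9 h 3 of 8 (background 4.64%). The single call at 3 h was KLF10, whose loading effect was larger with the antagonist. Constructs loaded with GSK205 held 96.3, 115, 102 and 108 CPM, against 44.9 ± 3.34 CPM under GSK205 alone (log2 1.23 ± 0.069, adjusted p = 5.86e-14). The interaction was 0.67 ± 0.096 (adjusted p = 2.11e-04).

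KLF4, KLF6 and KLF10 carried the interaction at 9 h. KLF4 measured 574, 584, 578 and 638 CPM under GSK205 and 346, 288, 332 and 312 CPM under GSK205 with loading, a log2 fold change of -0.90 ± 0.053 (adjusted p = 2.37e-13) against -0.32 ± 0.053 without the antagonist. The interaction was -0.59 ± 0.074 for KLF4, -0.43 ± 0.078 for KLF10 and -0.38 ± 0.06 for KLF6 (adjusted p = 1.13e-05, 0.0010 and 1.76e-04). After loading with GSK205, 1 of 8 members differed from loading alone at 9 h (background 4.10%), namely KLF15 (-0.27 ± 0.072, adjusted p = 0.0274), a call lost without loading with GSK205 replicate 3 or 4 or loading replicate 1, 2 or 3 (adjusted p = 0.0598 to 0.1417). KLF4 was near its level under loading alone there (0.075 ± 0.053, adjusted p = 0.5067, interval -0.03 to 0.18).

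Loading with GSK205 was higher than loading alone in 6 of 8 members at 3 h (background 15.3%). KLF6 led with 0.78 ± 0.048, followed by KLF15 (0.55 ± 0.11), KLF2 (0.53 ± 0.079), KLF4 (0.44 ± 0.052) and KLF11 (0.41 ± 0.1). KLF10 was the sixth (0.19 ± 0.067, adjusted p = 0.0467), lost without loading with GSK205 replicate 2, 3 or 4 or loading replicate 1 or 4 (adjusted p = 0.0594 to 0.1702) and in a fit with replicate numbers as a block (adjusted p = 0.0544). Against GSK205 alone, loading with GSK205 called 2 of 8 members at 3 h (background 11.9%), KLF10 and KLF6, both higher, and 4 of 8 at 9 h (background 18.0%), KLF4, KLF6, KLF10 and KLF11, all lower.

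Constructs given DMSO vehicle changed with time too. Between DMSO libraries at 9 h and 3 h, 6 of 8 members were called (background 22.2%). KLF9 fell most (-0.67 ± 0.085, adjusted p = 2.13e-08), followed by KLF10 (-0.47 ± 0.064), KLF2 (-0.38 ± 0.08) and KLF5 (-0.35 ± 0.12), while KLF11 (0.39 ± 0.095) and KLF15 (0.36 ± 0.096) rose. The call for KLF5 (adjusted p = 0.0379) was lost without DMSO 3 h replicate 1 or 3 or DMSO 9 h replicate 1, 2 or 3 (adjusted p = 0.0615 to 0.1194).

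In the PIEZO1 experiment the members' calls were few, and libraries of a group differed more (common biological coefficient of variation 0.282 at 3 h and 0.300 at 9 h, against 0.107 and 0.0874 in the TRPV4 experiment). PIEZO1 itself measured 3.71, 5.11, 6.98 and 6.75 CPM in siNTC vehicle libraries and 4.17, 4.98, 4.62 and 5.13 CPM in siPIEZO1 vehicle libraries at 3 h. These overlapped, and the difference was not called (-0.24 ± 0.19, adjusted p = 0.5761). At 9 h the values were 6.55, 6.45, 5.31 and 3.76 CPM and 2.26, 4.26, 4.53 and 2.78 CPM (-0.66 ± 0.23, adjusted p = 0.0619). Under Yoda1 the libraries did not overlap, with 5.74, 7.97, 8.12 and 9.34 CPM in siNTC and 4.16, 5.62, 4.18 and 4.89 CPM in siPIEZO1 cells at 3 h. The siPIEZO1 mean was the lower at both times under vehicle, compression and Yoda1. In vehicle libraries PIEZO1 RNA was thus lower on average with siPIEZO1 but not called, which bears on every comparison of siPIEZO1 with siNTC.

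**Figure D4:**
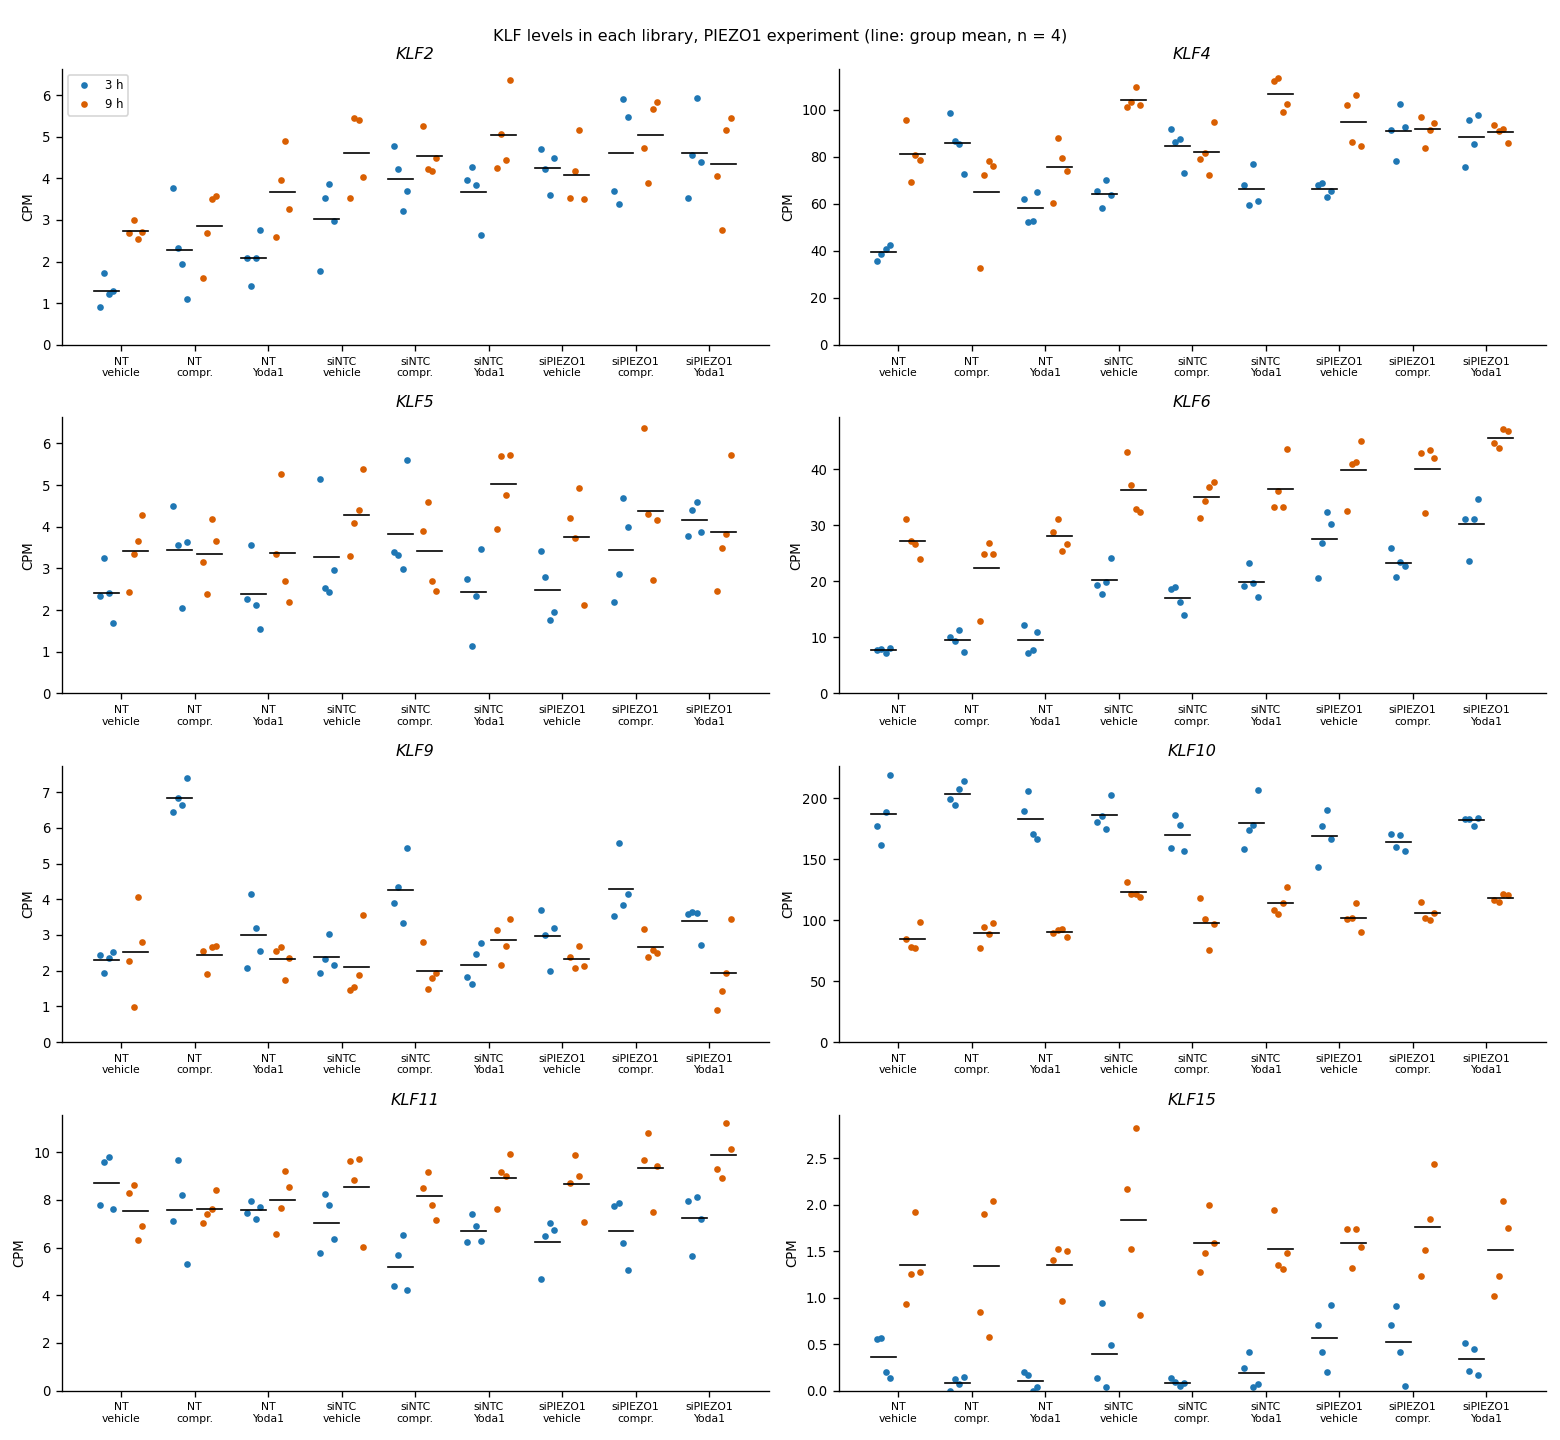
CPM of the 8 members (linear axes from 0) in the PIEZO1 experiment, by transfection group and stimulus. Points are libraries at 3 h (blue) and 9 h (orange), and black lines are means of 4 libraries. KLF9 stands highest in compressed NT libraries at 3 h, KLF10 is higher at 3 h than at 9 h, and KLF6 and KLF15 are lower at 3 h than at 9 h.

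Compression to 80% in non-transfected cells called 2 of 8 members at 3 h (background 6.27%), KLF4 and KLF9, both higher. KLF9 measured 2.43, 1.93, 2.34 and 2.52 CPM in vehicle libraries and 6.45, 6.84, 6.63 and 7.41 CPM in compressed ones, a rise of 2.94-fold (log2 1.56 ± 0.22, adjusted p = 6.75e-06). KLF4 measured 35.7, 38.8, 40.7 and 42.3 CPM and 98.4, 86.8, 85.3 and 72.8 CPM (log2 1.11 ± 0.11, adjusted p = 1.96e-09). Neither pair of groups overlapped. KLF2 was not called (0.81 ± 0.29, adjusted p = 0.0876), but was without NT compression replicate 4 (adjusted p = 0.0259) and by DESeq2 (adjusted p = 0.0422).

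With siNTC the same compression gave 0.84 ± 0.22 for KLF9 and 0.39 ± 0.10 for KLF4. Their libraries did not overlap, yet 0 of 8 members were called by edgeR (adjusted p = 0.0546 and 0.0597; background 0.911%), 4 had an unadjusted p under 0.05, and DESeq2 called both. With siPIEZO1, 1 of 8 was called (background 0.600%), KLF4, with 67.9, 68.6, 62.9 and 65.6 CPM in vehicle and 91.4, 78.1, 102 and 92.6 CPM in compressed libraries (log2 0.45 ± 0.10, adjusted p = 0.0298). That call was lost without siPIEZO1 vehicle replicate 3 or 4 or siPIEZO1 compression replicate 1, 3 or 4 (adjusted p = 0.0528 to 0.1782), and in a fit of those groups alone (adjusted p = 0.3053). KLF9 gave 0.52 ± 0.22 there (adjusted p = 0.2964).

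Tested as an interaction, the compression effect did not differ detectably between siPIEZO1 and siNTC for any member at 3 h (0 of 8 called by edgeR, 1 with an unadjusted p under 0.05, 0 by DESeq2; background 0%). The difference was 0.063 ± 0.15 for KLF4 (interval -0.23 to 0.36) and -0.31 ± 0.31 for KLF9 (interval -0.93 to 0.30). Whether compression acts differently in NT and siNTC cells was not tested.

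At 9 h 0 of 8 members were called by edgeR under compression in NT cells (1 with an unadjusted p under 0.05, 0 by DESeq2; background 3.51%). The compression effect was smaller at 9 h than at 3 h by 1.45 ± 0.19 for KLF4 and 1.61 ± 0.40 for KLF9 (log2, adjusted p = 6.74e-08 and 0.0046; 2 of 8 called, background 9.21%). KLF4 measured 32.8, 72.4, 78.1 and 76.0 CPM in compressed NT libraries at 9 h, so replicate 1 lay far below the rest. Without it the compression effect on KLF4 at 9 h was -0.093 in place of -0.33, and the difference between the times -1.25.

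Elsewhere at 9 h compression called 1 of 8 members with siNTC (background 6.43%), KLF10, which was lower (-0.34 ± 0.094, adjusted p = 0.0265), a call lost without siNTC vehicle replicate 1, 3 or 4 or siNTC compression replicate 2, 3 or 4 (adjusted p = 0.0504 to 0.1882). A fit of the groups of the contrast alone called KLF4 (-0.35, adjusted p = 0.0494) and not KLF10 (adjusted p = 0.0921). With siPIEZO1 0 of 8 were called by edgeR, 0 had an unadjusted p under 0.05 and DESeq2 called 0 (background 2.18%). In the interaction, KLF10 gave 0.39 ± 0.13, adjusted p = 0.1509, which was called without siNTC compression replicate 1 (adjusted p = 0.0382), and 0 of 8 members were called in full (background 1.09%; 1 with an unadjusted p under 0.05, 0 by DESeq2).

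Yoda1 raised KLF4 in NT cells at 3 h, from 39.4 ± 2.82 CPM to 62.1, 52.3, 52.8 and 64.8 CPM (log2 0.55 ± 0.11, adjusted p = 0.0060). That was 1 of 8 members (background 0.409%), and it was lost without NT vehicle replicate 1 (adjusted p = 0.0662). In NT cells at 3 h compression gave more KLF4 than Yoda1 (0.56 ± 0.10, adjusted p = 0.0012) and more KLF9 (1.18 ± 0.22, adjusted p = 0.0011), 2 of 8 members (background 4.32%). KLF4 under Yoda1 gave 0.046 ± 0.10, adjusted p = 0.8540 with siNTC and 0.41 ± 0.10, adjusted p = 0.0818 with siPIEZO1, the latter called without siPIEZO1 Yoda1 replicate 1 (adjusted p = 0.0359) and by DESeq2 (adjusted p = 0.0266). The interaction for KLF4 was 0.37 ± 0.15, adjusted p = 0.2189.

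**Figure D5:**
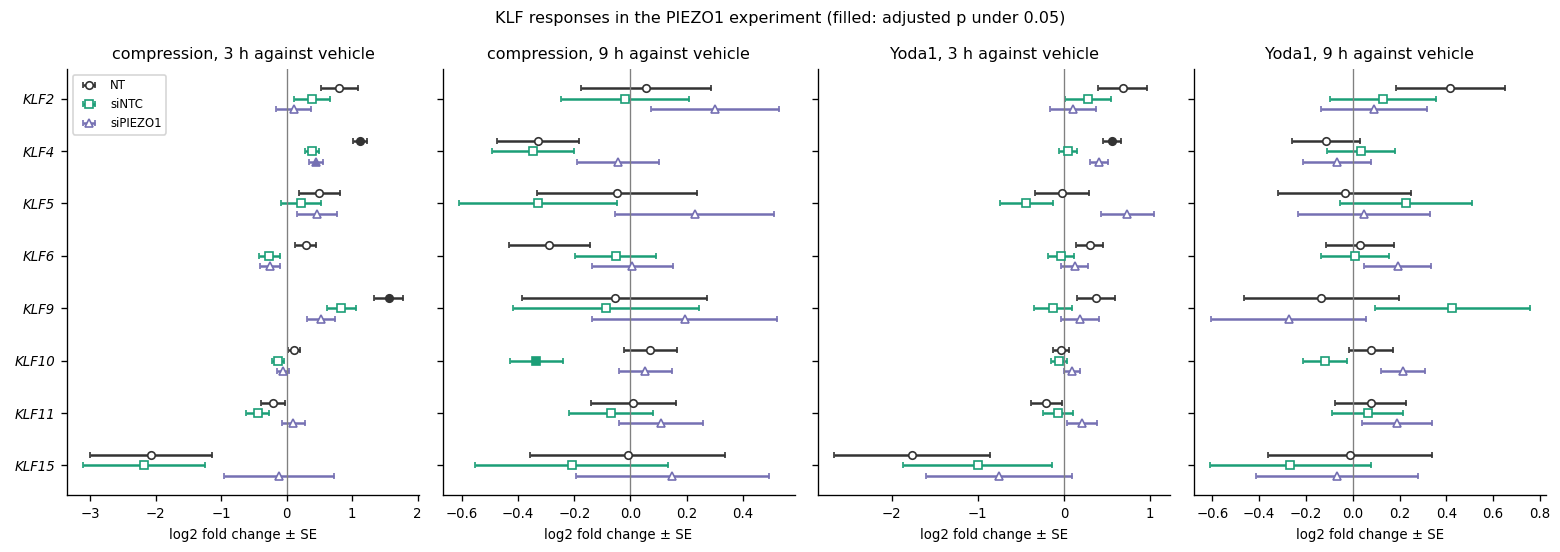
Log2 fold changes against vehicle (x axis, ± SE, 4 against 4 libraries) of the 8 members (y axis) under compression and Yoda1 at 3 h and 9 h, in NT (circles), siNTC (squares) and siPIEZO1 (triangles) cells. Filled symbols have an adjusted p under 0.05. KLF4 and KLF9 lie to the right under compression at 3 h in each transfection group, and KLF15, whose levels are lowest, has the widest errors at 3 h. The x axes differ between panels.

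The other Yoda1 comparisons held no called member. By edgeR 0 of 8 were called at 3 h with siNTC (background 5.40%), with siPIEZO1 (0.262%) and in the interaction (0.938%). At 9 h none was called in NT (0%), siNTC (0%) or siPIEZO1 cells (2.54%), in the interaction (0.0269%) or in compression against Yoda1 (0.784%). Over the 15 comparisons of the experiment with no edgeR call, 16 of 120 member tests had an unadjusted p under 0.05 and DESeq2 called 5.

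Transfection alone went with higher levels of several members. In vehicle libraries at 3 h, 3 of 8 were called between siNTC and NT (background 7.53%), all higher with siNTC. KLF6 measured 7.74, 7.96, 7.21 and 8.06 CPM in NT and 19.4, 17.8, 20.0 and 24.1 CPM in siNTC libraries (2.62-fold, log2 1.39 ± 0.16, adjusted p = 6.49e-08). KLF2 went from 0.914, 1.73, 1.23 and 1.30 CPM to 1.77, 3.52, 3.86 and 2.97 CPM (log2 1.23 ± 0.28, adjusted p = 0.0034). KLF4 was higher as well (0.71 ± 0.11, adjusted p = 8.51e-06). Fibroblast markers, which moved with these groups, summed to 875 to 950.1 CPM in NT and 485 to 506 CPM in siNTC vehicle libraries at 3 h. Chondrocyte markers summed to 32748 to 36487 CPM and 27149 to 28079 CPM there. The part of these markers in the result was not tested.

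At 9 h 1 of 8 was called between siNTC and NT (background 5.30%), KLF10 (0.52 ± 0.095, adjusted p = 3.52e-04). Fibroblast markers then summed to 1182 to 1347 CPM in NT and 588 to 983 CPM in siNTC vehicle libraries. Their part was not tested. KLF2 gave 0.73 ± 0.23, adjusted p = 0.0564 and was called without siNTC vehicle replicate 1 or 4 (adjusted p = 0.0437 to 0.0454). Between siPIEZO1 and siNTC vehicle libraries, 0 of 8 members were called by edgeR at 3 h (1 with an unadjusted p under 0.05, 1 by DESeq2; background 5.07%) or at 9 h (1 and 1; background 10.8%). The DESeq2 calls were KLF6 at 3 h and KLF10 at 9 h. By edgeR KLF6 was called without siPIEZO1 vehicle replicate 1 (adjusted p = 0.0176), and KLF10 without siPIEZO1 vehicle replicate 3 (adjusted p = 0.0309). Chondrocyte markers summed to 27149 to 28079 CPM with siNTC and 15048 to 21342 CPM with siPIEZO1 vehicle at 3 h. At 9 h they summed to 24555 to 37170.5 CPM and 18771 to 23594 CPM. COMP is the largest part of these sums (median 15142 CPM over the PIEZO1 libraries, beside 5380 for COL2A1 and 1674 for ACAN). The sums thus need not speak for each marker. Fibroblast markers summed to 485 to 506 CPM and 132 to 269 CPM at 3 h. At 9 h they summed to 588 to 983 CPM and 283 to 361 CPM. The part of these markers in comparisons of siPIEZO1 with siNTC was not tested.

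More members were called between times than under any stimulus of the PIEZO1 experiment. In NT vehicle libraries 5 of 8 were called between 9 h and 3 h (background 16.1%). KLF6 went from 7.74 ± 0.381 to 27.3 ± 2.93 CPM (log2 1.81 ± 0.16, adjusted p = 1.30e-14) and KLF10 from 187 ± 24.3 to 84.8 ± 9.80 CPM (-1.14 ± 0.095, adjusted p = 1.56e-15). KLF4 (1.04 ± 0.13) and KLF2 (1.08 ± 0.27) rose. KLF15 rose too (1.90 ± 0.61, adjusted p = 0.0211), from a level near 0, 0.553, 0.562, 0.199 and 0.140 CPM, and its call was lost without NT vehicle 3 h replicate 3 or 4 or NT vehicle 9 h replicate 3 (adjusted p = 0.0703 to 0.0825).

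Ordered by group mean, few neighbouring groups separated fully. In the TRPV4 experiment, between 2 (KLF5 and KLF9) and 5 (KLF6) of the 11 steps from 1 group to the next had libraries that did not overlap. For KLF2 every GSK101 library at 3 h lay above, and every IL-1 library at 3 h below, the libraries of all other groups. For KLF4 the GSK101 libraries at 3 h lay above all others, and those at 9 h above the libraries of the remaining groups. The highest group mean exceeded the lowest 19.3-fold for KLF2, 11.7-fold for KLF5, 11.0-fold for KLF11, 9.91-fold for KLF4 and 4.89-fold for KLF15, and 2.84- to 3.47-fold for KLF6, KLF9 and KLF10. In the PIEZO1 experiment at most 2 of 17 steps separated, and KLF2, KLF5, KLF11 and KLF15 had none.

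Across the 12 group means of the TRPV4 experiment (log2 CPM), which share controls and library kit, KLF2 and KLF4 varied most alike (r = 0.84) and KLF5 and KLF11 least (r = -0.76) among 28 pairs. Across the 18 groups of the PIEZO1 experiment the extremes were KLF2 with KLF6 (r = 0.87) and KLF10 with KLF15 (r = -0.87). KLF15 was near the floor there, with group means of 0.0836 to 1.83 CPM. Its mean was lower in every 3 h group than in any 9 h group, and that of KLF10 was higher. Their r thus largely restates the difference between the times. Among 9058 other genes with a mean of at least 5 CPM in the TRPV4 experiment, those most like KLF2 were RHOB, IRS2 and COL4A1 (r = 0.94 to 0.90). KLF4 was closest to OSR2, JUN and OTUD1 (r = 0.96 to 0.94) and KLF5 to SOCS1, TLE4 and KDM6B (r = 0.99 to 0.98). KLF11 was closest to EVA1B, RIN2 and PTAR1 (r = 0.97 in each case), KLF9 to PIM3 and BCL6 (r = 0.95 in both), KLF10 to ZNF622 and KLF15 to ZNF862 (r = 0.92 and 0.94). KLF6 had the weakest match, TNPO1 (r = 0.88). In the PIEZO1 experiment, among 8098 genes, KLF4 was closest to SPRY2 and SOX9 (r = 0.91 and 0.90), KLF10 to TUBB6 (r = 0.97), KLF6 to SERPINB5 (r = 0.97) and KLF9 to BTG1 (r = 0.87).

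Other genes of the family and pathway were counted by lists, chosen with earlier results of these data known. Their counts are to be read against the shares of all genes called, which were 40.0% under GSK101 and 32.2% under IL-1 at 3 h, 62.3% and 65.1% at 9 h, and 6.27% in compressed NT cells at 3 h. Of 9 other KLF genes, 7 were tested in the TRPV4 experiment. Under GSK101 at 3 h 5 were higher and 1 lower (median log2 fold change 0.48, beside 0.0094 over all genes), with KLF14 at 1.26 ± 0.46, KLF16 at 0.66 ± 0.076 and KLF13 at 0.56 ± 0.06. None reached the sizes of KLF2, KLF4 or KLF5. IL-1 at 3 h called 1 higher and 2 lower, among them KLF3, a repressor that acts through CtBP (-1.63 ± 0.06). At 9 h IL-1 called 3 higher and 3 lower, with KLF3 at -1.28 ± 0.046. Compression of NT cells at 3 h raised KLF7 (0.98 ± 0.21) and KLF13 (0.64 ± 0.10). Of the related SP genes, 7 were tested at 3 h, of which GSK101 called 1 higher and 2 lower and IL-1 none, while at 9 h IL-1 called 1 higher (SP6, 3.91 ± 0.73) and 4 lower.

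The kinases and MEF2 factors that lie upstream of KLF2 and KLF4 in endothelium were counted next. Under GSK101 at 3 h 5 of 7 were higher and 0 lower (median 0.31, beside 0.0094 over all genes), led by MEF2D (0.76 ± 0.091), MEF2A (0.71 ± 0.06) and the kinase MAP3K2 (0.62 ± 0.064). IL-1 at 3 h called 1 higher and 3 lower, with MEF2D at -0.81 ± 0.096, MEF2C at -0.43 ± 0.058 and MEF2A at -0.25 ± 0.06. At 9 h IL-1 called 2 higher and 4 lower, with MEF2C at -1.61 ± 0.077. KLF4 was higher under IL-1 at both times, and KLF2 only at 9 h. Under GSK205 at 3 h (background 27.1%) KLF4 was higher and KLF2 not called. The largest called changes of the list there were MEF2A (0.48 ± 0.06), MAP3K2 (0.37 ± 0.065), MAP2K5 (0.28 ± 0.07) and MEF2C (-0.26 ± 0.058). Loading at 3 h (background 10.2%), where KLF2 was lower, called MEF2C (-0.57 ± 0.058), MAP3K2 (0.40 ± 0.065) and MAP3K3 (0.23 ± 0.071). The shares of all genes called were 40.0% under GSK101 at 3 h, 32.2% under IL-1 at 3 h and 65.1% at 9 h. These are RNA levels, and the activity of ERK5 was not measured.

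The glucocorticoid receptor NR3C1 and its targets (8 listed, all tested) were set beside KLF9 and KLF15. GSK101 at 3 h (background 40.0%) called 7 higher and 1 lower (median 0.74), led by DUSP1 (3.11 ± 0.065), a phosphatase gene that other stimuli also induce, and SGK1 (2.80 ± 0.084). KLF9 was not called under GSK101 at 3 h, and KLF15 was lower. IL-1 at 3 h (background 32.2%), where KLF9 rose and KLF15 fell, called 3 higher and 5 lower. CEBPD rose by 5.04 ± 0.10, whereas PER1 (-1.25 ± 0.13) and ZBTB16 (-1.17 ± 0.14) fell. Compression of NT cells at 3 h, where KLF9 rose (background 6.27%), called 4 higher and 0 lower, namely CEBPD (0.96 ± 0.19), SGK1 (0.67 ± 0.12), TSC22D3 (0.59 ± 0.16) and NR3C1 (0.54 ± 0.09). KLF9 was not called between siNTC and NT vehicle at 3 h (background 7.53%) or under loading at 3 h (background 10.2%). The called genes of the list were TSC22D3 (0.76 ± 0.16), SGK1 (0.74 ± 0.12) and FKBP5 (0.45 ± 0.13) in the former. Under loading the largest called changes were CEBPD (0.47 ± 0.089), TSC22D3 (0.40 ± 0.055), DUSP1 (0.25 ± 0.06) and NR3C1 (0.18 ± 0.057).

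Corepressors and ubiquitin ligases of KLF proteins (8 tested) were also counted. Under GSK101 (background 40.0%) 3 were higher and 0 lower at 3 h, CTBP2 (0.22 ± 0.087), CTBP1 (0.19 ± 0.068) and HDAC2 (0.15 ± 0.05). At 9 h CTBP2 reached 0.61 ± 0.084 under GSK101 and -0.51 ± 0.086 under IL-1. SIN3A, the corepressor of KLF10 and KLF11, was among the largest called changes of the list in several comparisons. It was higher under IL-1 at 3 h (0.20 ± 0.064) and in compressed NT cells at 3 h (0.51 ± 0.14), and lower under GSK205 at 3 h (-0.28 ± 0.064) and loading at 9 h (-0.18 ± 0.055).

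Genes reported elsewhere as KLF targets moved in both directions. Thrombomodulin, THBD, a KLF2 target in endothelium, rose under GSK101 by 1.88 ± 0.23 at 3 h and 4.28 ± 0.15 at 9 h, and under loading at 3 h by 0.96 ± 0.24, where KLF2 fell. NOS3, another endothelial KLF2 target, fell under IL-1 at 3 h (-1.67 ± 0.27) and under loading at 3 h (-0.82 ± 0.25). Under GSK101 at 3 h, where KLF2 rose, NOS3 was not among the 4 called targets with the largest changes. Those were THBD, TXNIP (-1.40 ± 0.081), DIO1 (-1.01 ± 0.23) and CDKN1A. SMAD7, an inhibitor of TGF-beta signalling that KLF10 represses, rose under loading at 3 h (1.21 ± 0.11), where KLF10 rose, and fell under GSK205 (-1.69 ± 0.13), where KLF10 fell. It also rose under IL-1 at 3 h (2.48 ± 0.11), where KLF10 was not called, and fell under loading at 9 h (-0.32 ± 0.099), where KLF10 fell. CDKN1A, a cell cycle inhibitor that KLF4 and KLF6 activate, rose under GSK101 at 3 h (0.98 ± 0.058), IL-1 (1.46 ± 0.059), loading (0.39 ± 0.058) and GSK205 (0.29 ± 0.058), and fell under loading at 9 h (-0.18 ± 0.047). In full, of the tested targets GSK101 called 3 higher and 2 lower of 8 at 3 h (background 40.0%), and IL-1 5 higher and 3 lower of 9 at 9 h (background 65.1%).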

How the data were processed

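The authors deposited a table of raw read counts per gene, which was used as it stands. Per the submitters' processing notes the tools were Trim Galore, STAR and HTSeq and the genome Sscrofa11.1, while the strand setting is not given in the sources used here, and neither are tool versions. Per the labels' protocols ribosomal RNA was depleted in both experiments, with a low-input kit for the PIEZO1 experiment, although the molecule label reads polyA RNA. The siRNA was transfected according to the protocol, where titles read transduced. Of 32388 lines, 481 repeats with identical counts were dropped.

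Counts were scaled by TMM and tested with edgeR 4.0.16 (R 4.3.3, quasi-likelihood test, filterByExpr with a minimum count of 10), per experiment and time, with both times in 1 model for contrasts between times. P-values were adjusted by Benjamini-Hochberg over all genes tested, and under 0.05 counts as called. Standard errors are the log2 fold change divided by the square root of F, and intervals span 2 of them either side. CPM use the scaling of both times together. The fits were also run on simulated counts drawn with the spread that edgeR itself had fitted, which cannot test how real libraries vary. Alternatives were DESeq2 1.42.0, RLE factors, no filter, the groups of a contrast alone, a replicate block, protein-coding genes alone and leaving out each library.

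All members are named. Of other lists, at most 4 called genes with the largest absolute log2 fold change are named per comparison, and the 3 genes closest in pattern were found per member. Members and lists were chosen with earlier results of these data known. The lowest chi-square per degree of freedom between replicates was 5.49 in the TRPV4 and 12.5 in the PIEZO1 experiment, so no library was counted as a duplicate.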

Additional observations from a re-analysis of the deposited data

Results flagged for a closer look

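Libraries far from the other 3 of their group were searched for in 240 combinations of member and group, and 13 were found, close to the 1 in 20 or so that chance gives. In the TRPV4 experiment KLF2 stood low in replicate 2 of loading with GSK205 at 3 h (179 CPM against 197 to 201 in the others) and in replicate 3 of IL-1 at 9 h (148 against 178 to 181). KLF4 stood high in replicate 1 of loading at 3 h (422 against 381 to 385) and replicate 4 of GSK205 at 9 h (638 against 574 to 584), and low in replicate 3 of IL-1 at 9 h (579 against 647 to 656). KLF10 stood high in replicate 1 of DMSO at 3 h (69.3 against 60.1 to 60.7) and replicate 4 of IL-1 at 3 h (71.5 against 62.5 to 63.8).

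In the PIEZO1 experiment, replicate 1 of compressed NT cells at 9 h was low for KLF4 (32.8 CPM against 72.4 to 78.1) and for KLF6 (12.9 against 24.9 to 26.9), and replicate 2 of that group was low for KLF9 (1.90 against 2.56 to 2.68). KLF5 was high in replicate 4 of compressed siNTC cells at 3 h (5.60 against 2.98 to 3.38). KLF6 was low in replicate 2 of compressed siPIEZO1 cells at 9 h (32.2 against 42.0 to 43.4), and KLF9 in replicate 4 of Yoda1-treated siPIEZO1 cells at 3 h (2.72 against 3.59 to 3.65).

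Effects that differed under a test of the difference itself (edgeR, adjusted p under 0.05) were of 2 kinds. The effect of loading with GSK205 less that without it was 0.67 for KLF10 at 3 h, and -0.59 for KLF4, -0.43 for KLF10 and -0.38 for KLF6 at 9 h (log2). The effect at 9 h less that at 3 h formed the second kind. Under GSK101 it was -1.63 for KLF4, 0.97 for KLF10, -0.60 for KLF5, 0.20 for KLF6, -1.32 for KLF15, -0.75 for KLF11 and -2.34 for KLF2. Under loading it was -0.44 for KLF4, -0.83 for KLF10, -0.56 for KLF5, -0.23 for KLF6 and 0.45 for KLF15. Under IL-1 it was 0.31 for KLF9, 0.68 for KLF5, 0.98 for KLF6, 1.71 for KLF15, -1.87 for KLF11 and 1.58 for KLF2. Under compression of NT cells it was -1.45 for KLF4 and -1.61 for KLF9.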

How the results depend on the processing

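Of 121 member calls, 103 were kept under every alternative that gave a value, and no member test reversed. DESeq2 left 327 member tests as they were and added 11 calls, and gave the rest, uncalled by edgeR, no adjusted p. With a contrast's groups alone 340 stayed, 5 were gained and 3 lost, and KLF15 was filtered out of the rest. Counts over all genes moved over 1.5 times in 19 of 44 comparisons by DESeq2 and 16 with the contrast's groups alone, and 325 of 4176 list counts did over all alternatives. RLE factors changed no member call. Apart from leaving out a library, which is given below, the number of members called moved over 1.5 times in these comparisons. For the interaction of loading and GSK205 at 3 h it was 3 by DESeq2 and 2 with no filter, in place of 1, through KLF2 and KLF11 by DESeq2. For loading with GSK205 against loading at 9 h it was 2 with the groups of the contrast alone, in place of 1. For compression with siNTC at 3 h it was 2 by DESeq2, 1 with the contrast's groups alone and 2 with protein-coding genes alone, in place of 0, and with siPIEZO1 0 with the contrast's groups alone, in place of 1. DESeq2 gave 1 in place of 0 for Yoda1 with siPIEZO1 at 3 h and for siPIEZO1 against siNTC at 3 h and 9 h. For siNTC against NT at 9 h it was 2 in place of 1 by DESeq2, with the contrast's groups alone, with protein-coding genes alone and with the replicate block. The cause was not tested.

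Leaving out each library in turn gave 6 to 7 members called for GSK101 at 3 h, 3 to 5 for loading and for GSK205 at 3 h, 3 to 5 for loading at 9 h and for the loading effect between times, and 3 to 7 for GSK205 at 9 h. It gave 5 to 6 and 0 to 1 for loading with GSK205 against loading at 3 h and 9 h, 1 to 2 for the interaction at 3 h, 4 to 5 against GSK205 at 9 h, 5 to 6 for DMSO over time and 5 to 7 for IL-1 between times. In the PIEZO1 experiment it gave 2 to 3 for compression of NT cells at 3 h and between times, 4 to 5 for NT vehicle over time, 1 to 2 for siNTC against NT at 9 h, and 0 to 1 for compression with siPIEZO1 at 3 h and siNTC at 9 h, Yoda1 in NT and siPIEZO1 at 3 h, siPIEZO1 against siNTC at both times and the compression interaction at 9 h. Further calls, not given above, were gained that way. KLF2 was gained under GSK205 at 3 h without DMSO replicate 4 (adjusted p = 0.0297). It was also gained in the loading interaction at 3 h without DMSO replicate 1 (adjusted p = 0.0371). For loading with GSK205 against GSK205 at 9 h, KLF2 was gained without GSK205 replicate 3 (adjusted p = 0.0245). KLF10 was gained between times under IL-1 without DMSO 9 h replicate 4 (adjusted p = 0.0198). Between times under compression, KLF6 was gained without NT compression 3 h replicate 4 or NT compression 9 h replicate 3 (adjusted p = 0.0394 to 0.0409).

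Replicate numbers did not pair the libraries (correlations of same-numbered deviations -0.13 to 0.15). As a hint from the data and not the design, 17 of 36 libraries of the PIEZO1 experiment at 9 h correlated best with 1 of their own number, against 7 of 36 at 3 h, and 5 (3 h) and 6 (9 h) of 24 TRPV4 libraries. With the replicate block KLF10 in loading with GSK205 against loading at 3 h (adjusted p = 0.0544) and KLF6 in loading at 9 h (0.0520) were lost and KLF2 in siNTC against NT at 9 h (0.0385) was gained. KLF15 in the PIEZO1 experiment is limited by depth, with counts down to 0.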
